A study of Mus musculus with 2 samples.

Results

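Type I interferon-stimulated genes were followed across the cell classes of RM-1 tumours. The list holds 34 symbols, named by their known induction by type I interferon, and its members were chosen by exact match of the symbol to the deposited gene names. Of these, 32 matched among 32285 genes, and Mx1 and Mx2 are not analysed here. RM-1 is a mouse prostate carcinoma line. Its subcutaneous tumours in C57BL/6 mice, labelled WT, were collected 10 days into treatment with vehicle or with RP-6306, which blocks PKMYT1, a kinase that restrains entry into mitosis. CD45+ cells were sorted, mixed with tumour cells at 3 parts to 1, and profiled by 3' single-cell RNA sequencing, so class sizes follow the mixing as well as the tumour. There was 1 library for each treatment and the design text names 2 mice in all, so treatment, mouse and library cannot be told apart. No test between the libraries was possible; every interval below is an exact 95% interval for counting error only.

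Type I interferons signal through the receptor Ifnar1/Ifnar2 and the kinases Jak1 and Tyk2. Signalling leads to the factor ISGF3, which holds Stat2 and Irf9 and binds the interferon-stimulated response element (ISRE) in target promoters. The targets make antiviral effectors, nucleic acid sensors and parts of the pathway itself. Many also respond to interferon gamma. In tumours such genes can be active in the malignant cells and in infiltrating leukocytes.

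The vehicle library held 16048 cells and 126730939 unique molecular identifiers (UMIs) after filters, and the RP-6306 library 14880 cells and 146993408 UMIs. Cells were clustered without the interferon genes and named from marker genes. Tumour-like cells numbered 3172 in vehicle and 3384 in RP-6306, T-like cells 4135 and 5290, B-like cells 3479 and 3454, NK-like cells 383 and 135, and macrophage and monocyte-like cells 460 and 459. Tumour markers summed to 2024 and 2057 CPM (counts scaled to a common total for every class) in tumour-like cells in vehicle and RP-6306, T cell markers to 2135 and 2360 CPM in T-like cells, and NK markers to 2529 and 2829 CPM in NK-like cells. Barcodes found in both libraries numbered 374, of which 324 were kept; of the 192 named in both, 51 had the same class, against 57.2 from the class shares alone. Median UMIs per cell were 26280 and 31244.5 in tumour-like cells but 2927 and 2502 in T-like cells, so shares of positive cells were taken after thinning each cell to 1000 UMIs. Levels are UMIs of a class summed per library and given as CPM, and 3' UMIs are not scaled by transcript length.

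Promoter sequence is given before the levels, with stretches for some of the members that held the ISRE core defined below. The list was named by known induction by type I interferon, which acts through the ISRE. A high share of members with this element is therefore no independent finding. RefSeq promoters of build GRCm38.p6 were listed for 25 of the 32 members. The ISRE core GAAANNGAAA, on either strand and within 250 bases before the start of transcription, was present in 12 of these 25 genes (48%), and 6 held 2 or more copies, overlapping copies counted. Among all genes with a listed promoter it was present in 936 of 27025 (3.46%). Of 11 interferon gamma target genes with a listed promoter, 9 held the core (81.8%), and of 22 genes of receptors, signalling, induction and negative regulation, 1 did. Stretches of at most 30 bases around the copy nearest to the start are shown 5' to 3' on the strand of the gene, with the core in capitals.
Isg15: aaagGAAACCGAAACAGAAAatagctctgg
Bst2: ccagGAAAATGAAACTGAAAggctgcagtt
Oas1a: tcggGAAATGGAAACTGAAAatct
Ifit1: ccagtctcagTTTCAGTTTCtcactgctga
Ifit3: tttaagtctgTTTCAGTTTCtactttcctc
Ifit3b: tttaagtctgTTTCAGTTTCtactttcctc
Rsad2: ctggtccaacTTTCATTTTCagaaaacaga
Trim30a: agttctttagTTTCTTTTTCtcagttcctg

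These stretches lie at chr4:156200865-156200894 (minus strand) for Isg15, chr8:71537577-71537606 (minus) for Bst2, and chr5:120907526-120907549 (minus) for Oas1a. Ifit1 is at chr19:34640794-34640823, Ifit3 at chr19:34583397-34583426 and Ifit3b at chr19:34607793-34607822, all on the plus strand. Rsad2 is at chr12:26456553-26456582 and Trim30a at chr7:104465210-104465239, both on the minus strand. In Isg15, Bst2 and Oas1a 2 copies of the core overlap, which gives the longer run of capitals. The stretches of Ifit3 and Ifit3b are identical in all 30 bases. Stat2, Oas3, Slfn5 and Slfn8 also held the core, while Ifit2, Oasl1, Oasl2, Irf7, Irf9, Ifi44, Xaf1, Cmpk2, Ifih1, Herc6, Ifi35, Eif2ak2 and Isg20 did not hold these letters in this window. A match describes the sequence and is not a measured binding site.

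Several members are neighbours in the genome. Ifit2, Ifit3, Ifit3b and Ifit1 lie in that order on chromosome 19 between 34550694 and 34650009. Oas2, Oas3 and Oas1a lie on chromosome 5 between 120730333 and 120907521, Oasl2 and Oasl1 on the same chromosome between 114896936 and 114937915, and Slfn5 and Slfn8 on chromosome 11. Rsad2 and Cmpk2 lie next to each other on chromosome 12 on opposite strands. Reads of close copies can be split between genes: 56.1% of the 50-base words in the last 500 bases of Oas1a also occur in Oas1g, and 14.9% of those of Ifit3 occur in Ifit3b. Values of Oas1a, Ifit3 and Ifit3b are therefore uncertain.

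Of the classes above, tumour-like cells had the lowest level of the members together, and in the vehicle library macrophage and monocyte-like cells had the highest. Their summed level was 607 CPM in vehicle and 471 CPM in RP-6306 in tumour-like cells, and 2367 and 1418 CPM in macrophage and monocyte-like cells. T-like cells had 1764 and 1819 CPM, B-like cells 1785 and 1917 CPM, and NK-like cells 982 and 1095 CPM. T-like and B-like cells therefore differed little in vehicle, and in the RP-6306 library both lay above the macrophage and monocyte-like class. The log2 ratio of RP-6306 to vehicle of this sum was -0.37 in tumour-like cells (interval -0.38 to -0.35) and -0.74 in macrophage and monocyte-like cells (-0.79 to -0.69). It was 0.04 in T-like cells (0.02 to 0.07), 0.10 in B-like cells (0.07 to 0.14) and 0.16 in NK-like cells (-0.01 to 0.32).

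Different genes carried the sum in different classes. Ifi27l2a, a small mitochondrial protein induced by interferon, led in monocyte-like, T-like and B-like cells, with 706 and 398 CPM in monocyte-like cells, 362 and 340 CPM in T-like cells and 436 and 457 CPM in B-like cells (vehicle and RP-6306 in that order, here and below). It was far lower in NK-like cells, at 25.5 and 13 CPM, and in tumour-like cells, at 5.21 and 3.97 CPM. Tumour-like cells were led by Bst2, the membrane protein tetherin that holds budding virus at the cell surface, at 110 and 83.4 CPM. NK-like cells were led by Trim30a, a TRIM family protein that restrains inflammatory signalling, at 150 and 179 CPM.

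**Figure D1:**
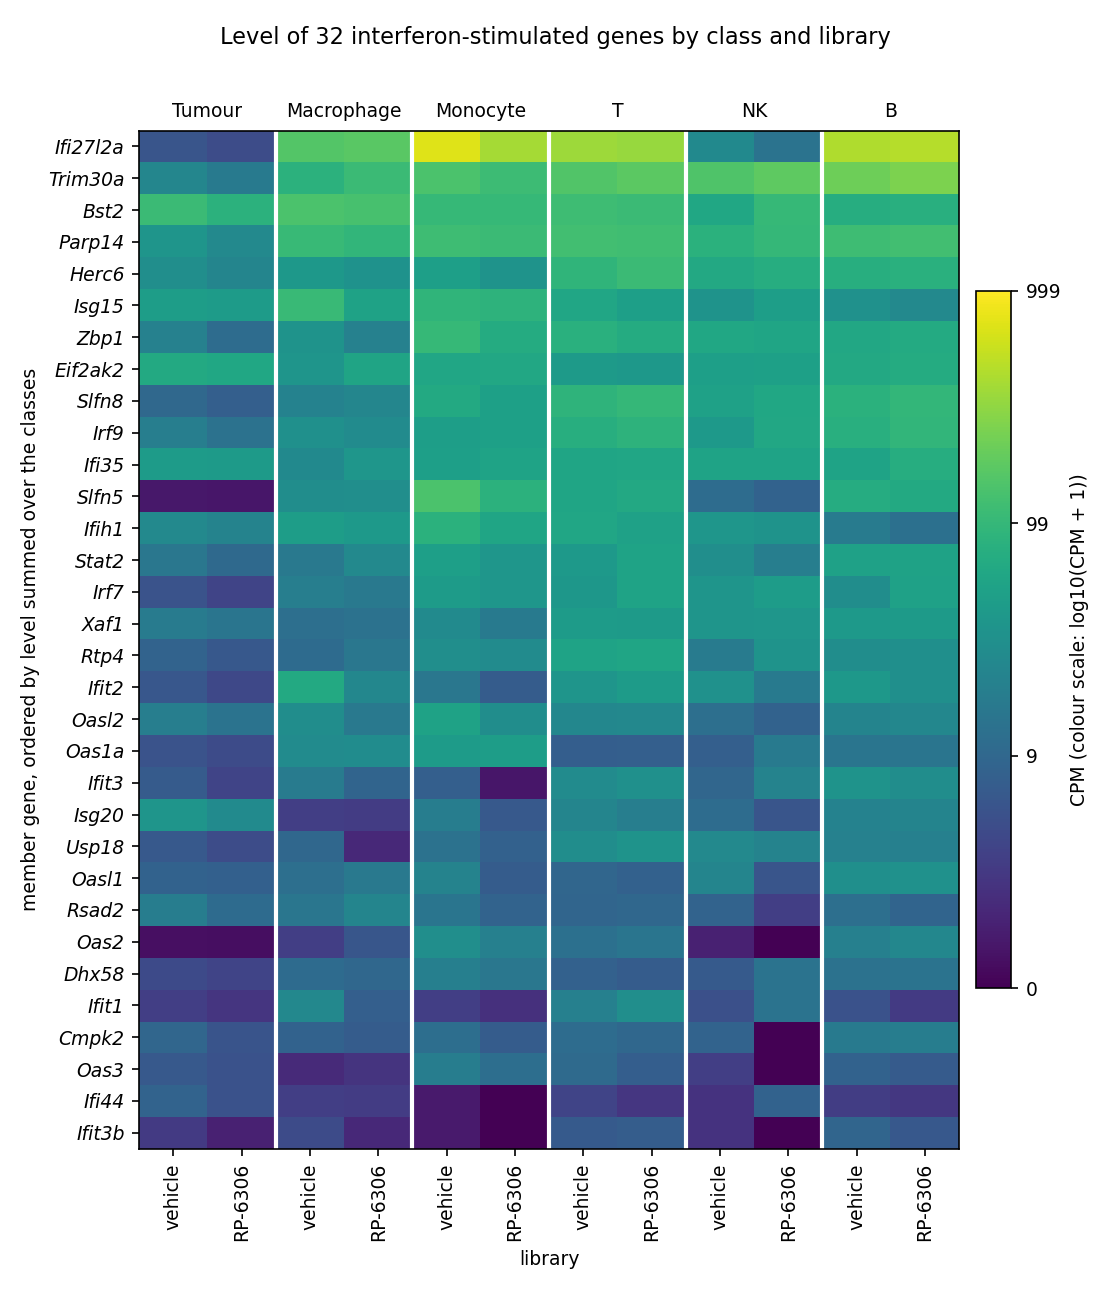
CPM of the 32 members (rows, ordered by summed level) in 6 classes, with vehicle and RP-6306 side by side; the colour follows log10(CPM + 1). Ifi27l2a is the brightest row in monocyte-like, T-like and B-like cells (706, 362 and 436 CPM in vehicle) and is dark in tumour-like cells (5.21 CPM).

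Shares of positive cells placed Ifi27l2a highest in monocyte-like cells in both libraries, whereas its CPM in RP-6306 was highest in B-like cells. At 1000 UMIs per cell a UMI of it was found in 43.1% of monocyte-like cells in vehicle (37.2 to 49.1%) and 30.9% in RP-6306 (25.1 to 37.1%). In T-like cells the shares were 25.8 and 24.0%, in B-like cells 29.6 and 29.4%, in macrophage-like cells 13.9 and 9.17%, in NK-like cells 1.34 and 0.781% and in tumour-like cells 0.662 and 0.562%. For comparison, the B cell gene Cd79a gave a UMI in 0.442 and 0.562% of tumour-like cells. The 21 tumour-like cells with a UMI of Ifi27l2a in vehicle had 2.34 times as many other members as those without, and whether these UMIs came from the cells themselves was not tested. In the other direction, the tumour keratin Krt8 gave a UMI in 4.14 and 2.01% of T-like cells and 4.95 and 2.81% of B-like cells, against 32.8 and 33.8% of tumour-like cells. Trim30a was found in 13.2 and 15.1% of T-like, 16.5 and 19.3% of B-like, 13.1 and 13.3% of NK-like and 2.68 and 1.75% of tumour-like cells. Bst2 was found in 10.6% of tumour-like cells in vehicle (9.55 to 11.7%) and 8.25% in RP-6306 (7.35 to 9.23%), close to its shares in T-like cells of 11.0 and 9.67%.

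**Figure D2:**
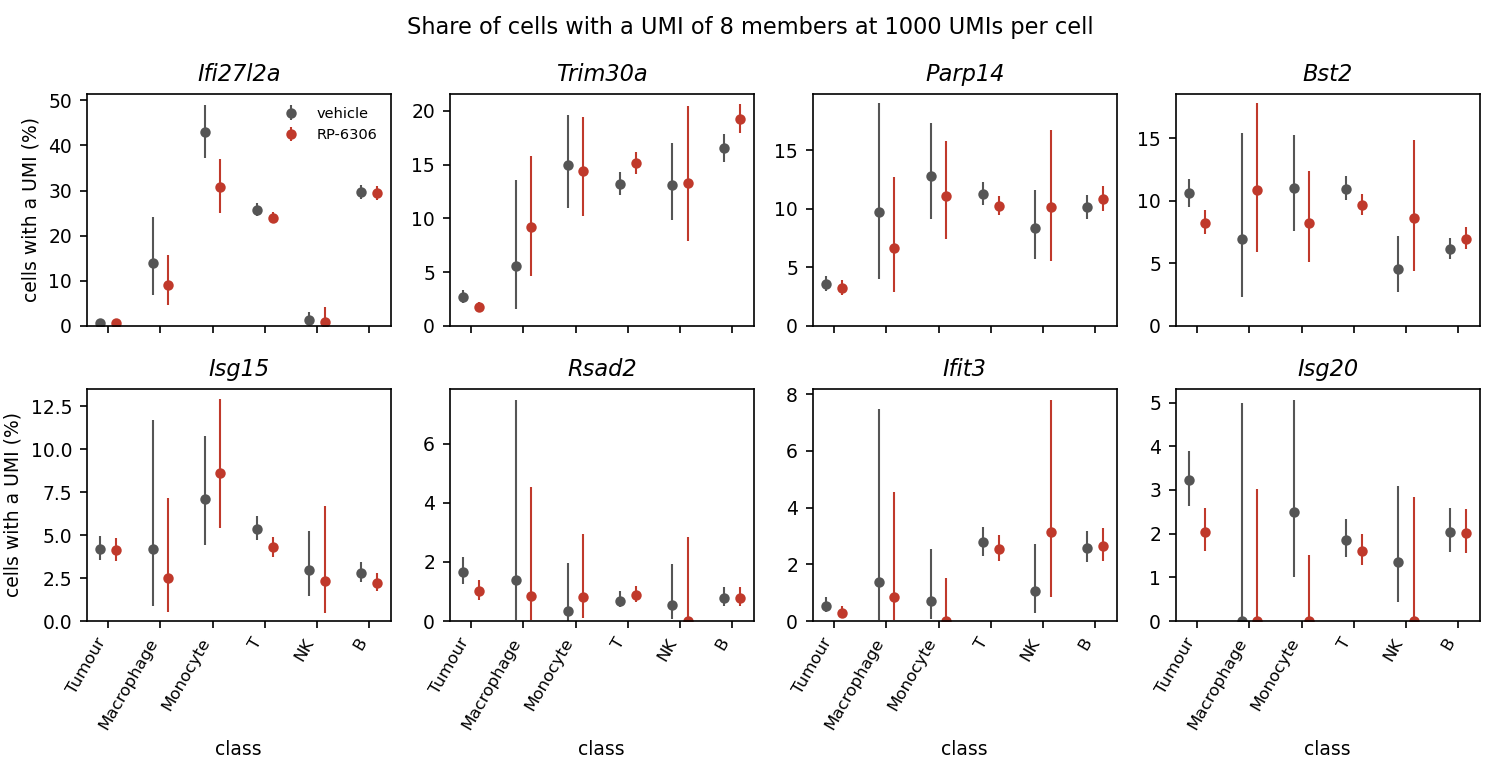
Percent of cells with at least 1 UMI of 8 members after thinning to 1000 UMIs per cell, by class (x axis) and library (grey vehicle, red RP-6306); bars are exact 95% binomial intervals. In vehicle Ifi27l2a is found in 43.1% of monocyte-like and 0.662% of tumour-like cells, while Bst2 is near 10.6% in tumour-like and 11.0% in T-like cells.

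In tumour-like cells all 32 members passed the minimum of 20 UMIs, and all 32 had a lower level in the RP-6306 library. The median log2 ratio, computed with 1 CPM added, was -0.41, against 0.01 over 17439 measured genes. The interval lay below 0 for 28 members. Only Ifit3, Ifit3b, Rsad2, Ifi44, Zbp1 and Cmpk2, 6 of 32, were past 1.5-fold lower and none was past 1.5-fold higher, where 1.58% of all measured genes were past 1.5-fold lower and 0.963% past 1.5-fold higher. Ratios of single genes are given below without the added 1 CPM.

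Of the 6 most abundant members of tumour-like cells 3 differed little between the libraries and 3 were lower in RP-6306. Eif2ak2, the double-stranded RNA-activated kinase PKR, was at 64.7 and 60.2 CPM (log2 ratio -0.10, interval -0.15 to -0.05). Isg15, the ubiquitin-like modifier, was at 46.2 and 43.0 CPM (-0.10, -0.16 to -0.04), and Ifi35 at 43.0 and 42.1 CPM (-0.03, -0.09 to 0.03). Isg20, an RNA exonuclease, was at 35.5 and 26.2 CPM, Parp14, an ADP-ribosyltransferase, at 35.2 and 24.9 CPM, and Bst2 had a log2 ratio of -0.40 (-0.45 to -0.36). With Bst2 these 6 genes held 55.2% of the members' UMIs in vehicle and 59.4% in RP-6306.

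The lowest ratios belonged to members outside these 6. Zbp1, a sensor of Z-form nucleic acid that can start necroptosis, was at 20.01 and 10.6 CPM (log2 ratio -0.91, interval -1.02 to -0.81). Rsad2, the antiviral enzyme viperin, was at 17.7 and 10.2 CPM (-0.80, -0.91 to -0.69). Ifit3, which binds foreign RNA with its relatives, was at 6.25 and 3.13 CPM (-1.0, -1.20 to -0.80), and Ifit3b at 2.26 and 0.906 CPM (-1.32, -1.68 to -0.97). A few cells weighed on these sums: 21.3% of the Ifit3 UMIs in vehicle and 26.4% in RP-6306 came from 1 cell, whereas for Zbp1 the shares were 0.866 and 3.55%. A low level did not go with a low ratio throughout: Slfn5 and Oas2, the 2 scarcest members, were at 0.566 and 0.529 CPM and at 0.323 and 0.296 CPM and differed by less than counting error.

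The transcription factors and RNA helicase sensors among the members were lower in RP-6306 in tumour-like cells. Stat2 was at 14.6 and 9.70 CPM (log2 ratio -0.59, interval -0.71 to -0.47), Irf9 at 18.2 and 12.6 CPM (-0.53, -0.63 to -0.42), and Irf7, which amplifies interferon production, at 4.89 and 3.08 CPM (-0.67, -0.88 to -0.46). The helicases Ifih1 (MDA5) and Dhx58 (LGP2) were at 24.9 and 20.8 CPM (-0.26, -0.34 to -0.17) and at 3.71 and 3.10 CPM (-0.26, -0.48 to -0.03). Usp18, which removes Isg15 from proteins and dampens the receptor, was at 5.84 and 3.95 CPM (-0.57, -0.75 to -0.38).

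The tumour-like class was made of 3 clusters whose sizes differed between the libraries. Cluster 17, led by genes of cell division such as Top2a and Plk1, held 939 cells in vehicle and 1541 in RP-6306, and had the lowest sum of the members, 499 and 407 CPM. Cluster 13 held 1732 and 1422 cells with 670 and 527 CPM, and cluster 14 held 501 and 421 cells with 654 and 602 CPM. Within the clusters the median log2 ratio was -0.35 in cluster 13, -0.23 in cluster 14 and -0.32 in cluster 17, and with the clusters weighted alike it was -0.35 for the class. Not every member was lower within each cluster. In cluster 14 19 of 30 measured members were lower and 11 higher, where 45.3% of all measured genes were lower. In cluster 13 30 of 32 were lower, and in cluster 17 29 of 32, where 43.6 and 44.3% of all measured genes were. Ifit3 was past 1.5-fold lower in clusters 13 and 17 but past 1.5-fold higher in cluster 14. Marker lists of leukocytes were also read in tumour-like cells. NK markers summed to 129 and 83.7 CPM, lower in RP-6306 as the members were, monocyte markers to 114 and 102 CPM, dendritic markers to 107 and 125 CPM, macrophage markers to 30.7 and 24.9 CPM, neutrophil markers to 19.8 and 18.7 CPM, B cell markers to 16.3 and 14.2 CPM and T cell markers to 12.6 and 11.4 CPM. With free RNA estimated from the B and T cell markers subtracted the members' median was -0.41; the part of the other lists in the result was not tested.

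**Figure D3:**
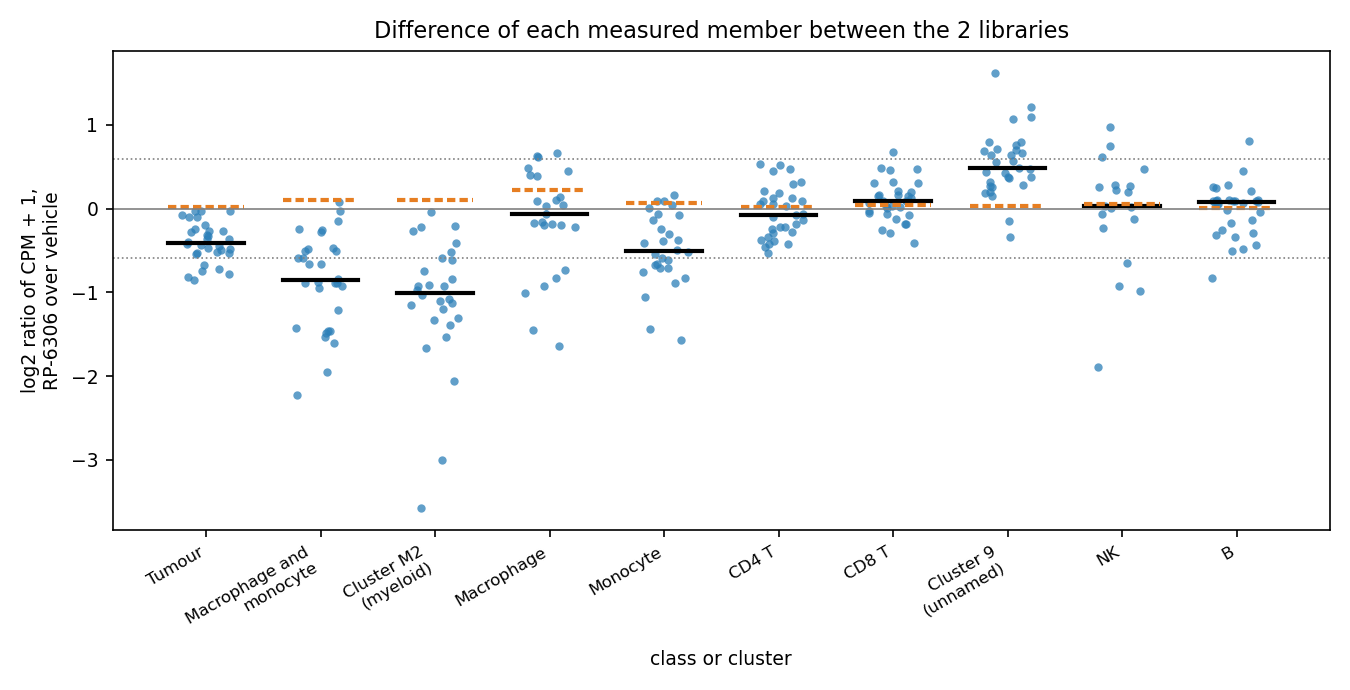
Log2 ratio of CPM + 1, RP-6306 over vehicle, of each measured member (blue points) by class or cluster; black lines are the members' medians, orange dashes the medians of all measured genes, and dotted lines mark 1.5-fold. All 32 points of tumour-like cells lie below 0 (median -0.41), macrophage and monocyte-like cells have a median of -0.86, and the unnamed cluster 9 has 0.49.

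Macrophage and monocyte-like cells showed the largest difference among the named classes. Of 30 members measured, 20 were past 1.5-fold lower in the RP-6306 library and 0 past 1.5-fold higher, where 5.5% of all measured genes of the class were past 1.5-fold lower and 11.2% past 1.5-fold higher. The median log2 ratio was -0.86, against 0.10 for all 10266 measured genes, and 24 intervals lay below 0. Ifit3b and Ifi44 had too few UMIs to be measured.

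Effectors led these low ratios. Rsad2 was at 83.7 and 17.1 CPM (log2 ratio -2.29, interval -2.69 to -1.90), Ifit1 at 19.6 and 4.34 CPM (-2.17, -3.03 to -1.39) and Ifit2 at 59.8 and 19 CPM (-1.65, -2.05 to -1.26). Usp18 was at 17.9 and 5.54 CPM (-1.69, -2.46 to -0.96). For Rsad2, 26.6% of the UMIs in vehicle and 49.3% in RP-6306 came from 1 cell, and for Ifit1 29.3 and 55.6%, so these sums rest on few cells.

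The abundant members were also lower, by less. Ifi27l2a was at 538 and 300 CPM (log2 ratio -0.84, interval -0.95 to -0.73), Isg15 at 173 and 91.1 CPM (-0.93, -1.12 to -0.73) and Slfn5, a Schlafen family protein, at 121 and 62.2 CPM (-0.96, -1.20 to -0.72). Parp14 was at 157 and 110 CPM (-0.51, -0.70 to -0.32), Trim30a at 142 and 119 CPM (-0.25, -0.44 to -0.05) and Bst2 at 140 and 116 CPM (-0.28, -0.47 to -0.08). Ifi35 at 43.9 and 46.3 CPM, Eif2ak2 at 61.1 and 59.8 CPM and Irf9 at 44.9 and 40.5 CPM had intervals that included 0.

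The cells behind this class were not the same in the 2 libraries. Macrophage markers such as the C1q genes summed to 2323 CPM in vehicle and 4550 CPM in RP-6306, while monocyte markers summed to 3211 and 3085 CPM. Clusters M8 (94 cells) and M6 (75 cells) were the largest in vehicle, M10 (108 cells) and M2 (58 cells) in RP-6306. The members summed to 2868 and 2687 CPM in M8 and 2589 and 2232 CPM in M6, but 1239 and 1087 CPM in M10. With the clusters weighted alike in both libraries the median log2 ratio of the class was -0.36, and without cluster M2 it was -0.56.

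Cluster M2 was led by members of the list, among them Rsad2, Ifit3, Ifit2 and Cmpk2, although interferon genes had not been used to form it, so its level against other clusters is no finding. It held 70 cells in vehicle and 58 in RP-6306 and was not assigned to macrophages or monocytes. Between the libraries its members summed to 5137 and 2682 CPM. Of 28 measured, 22 were past 1.5-fold lower and 0 past 1.5-fold higher, where 11.7% of all measured genes of the cluster were past 1.5-fold lower and 16% past 1.5-fold higher, and the median log2 ratio was -1.0. Rsad2 was at 389 and 31.8 CPM there (log2 ratio -3.61, interval -4.55 to -2.80), with 35.9 and 61.5% of its UMIs in 1 cell. Cmpk2, a mitochondrial nucleotide kinase and the genomic neighbour of Rsad2, was at 95.2 and 22 CPM, Isg15 at 512 and 306 CPM and Parp14 at 387 and 188 CPM. Cluster M7, led by heat shock genes and also not assigned, had 35 and 34 cells and sums of 2221 and 772 CPM.

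Clusters with clear markers were also split into monocyte-like and macrophage-like cells, and the 2 gave different medians. In monocyte-like cells (281 and 244) 12 of 28 measured members were past 1.5-fold lower and 0 higher, where 7.53% of all measured genes were past 1.5-fold lower and 11.7% higher, and the median log2 ratio was -0.51. Ifi27l2a had a log2 ratio of -0.83 (interval -0.96 to -0.69), Slfn5, at 140 and 82.8 CPM, of -0.76 (-1.07 to -0.45), and Isg20, at 17.7 and 5.87 CPM, of -1.59 (-2.75 to -0.53). Isg15 at 90.4 and 86.0 CPM, Parp14 at 115 and 109 CPM and Bst2 at 102 and 103 CPM differed by less than counting error. With clusters weighted alike the median was -0.07. The clusters' sizes differed between the libraries, with M10 at 43 and 108 cells, M8 at 94 and 42, M6 at 75 and 52 and M3 at 69 and 42. Within single clusters the log2 ratio of the members' sum was -0.04 in M3, -0.09 in M8, -0.19 in M10 and -0.21 in M6, against -0.48 for the class. The intervals of M3 and M8 included 0. The part of the cluster sizes in the class value was not tested.

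In macrophage-like cells (74 and 123) 6 of 25 measured members were past 1.5-fold lower (Ifit1, Ifit2, Ifit3, Isg15, Oasl2 and Zbp1) and 3 past 1.5-fold higher (Stat2, Eif2ak2 and Rsad2), where 5.09% of all measured genes were past 1.5-fold lower and 20% higher. The median log2 ratio was -0.07. Isg15 was at 107 and 52.5 CPM (log2 ratio -1.02, interval -1.47 to -0.57) and Eif2ak2 at 35.9 and 56.0 CPM (0.64, 0.02 to 1.31). Ifi27l2a at 158 and 169 CPM and Bst2 at 141 and 135 CPM led the class and differed by less than counting error. Single cells decided several sums: 1 cell held 89.5% of the Ifit1 UMIs and 84.3% of the Ifit2 UMIs in vehicle, and 94.6% of the Rsad2 UMIs in RP-6306. At a Leiden resolution of 0.5 the macrophage-like median was -0.91 and the monocyte-like median -0.17, so the split between these 2 classes was not stable.

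T-like cells differed little. None of the 32 measured members was past 1.5-fold in either direction, where 8.25% of all measured genes of the class were past 1.5-fold lower and 2.08% past 1.5-fold higher, and the median log2 ratio was 0.04. The top members were Ifi27l2a, Trim30a at 153 and 174 CPM, Parp14 at 123 and 119 CPM, Bst2 at 116 and 111 CPM, Herc6, which joins Isg15 to proteins in mice, at 91.1 and 109 CPM, and Slfn8 at 87.5 and 97.6 CPM. Irf7 at 38.0 and 53.9 CPM (log2 ratio 0.51, interval 0.34 to 0.68), Stat2 at 40.9 and 53.8 CPM (0.39, 0.23 to 0.56) and Ifit1 at 19.4 and 29.2 CPM (0.59, 0.36 to 0.83) had ratios above 0. Oas3, which makes the messenger that activates RNase L, was at 10.0 and 6.92 CPM (-0.53, -0.94 to -0.14).

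The CD4 and CD8 clusters gave similar values. In CD4 T-like cells (1702 and 2957) 0 of 32 members were past 1.5-fold in either direction, where 7% of all measured genes were past 1.5-fold lower and 3.94% past 1.5-fold higher, and the median was -0.07. In CD8 T-like cells (1998 and 2111) 1 of 31 was past 1.5-fold higher, Ifit1 at 17.8 and 29.1 CPM, and 0 lower, where 5.81% were past 1.5-fold lower and 3.01% higher, and the median was 0.09. Tumour markers in T-like cells summed to 153 and 88.2 CPM; with free tumour RNA subtracted the T-like median was 0.03.

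An unnamed lymphocyte cluster, cluster 9, went the other way. Its leading genes were Ly6c2, Ccl5, Ctla2a and Nkg7, its T cell markers summed to 1882 and 2164 CPM, its NK markers to 184 and 173 CPM, and it held 631 and 365 cells. The members summed to 1524 and 2086 CPM (log2 ratio 0.45, interval 0.38 to 0.52). Of 31 measured, 13 were past 1.5-fold higher in RP-6306 and 0 lower, where 4.98% of all measured genes of the cluster were past 1.5-fold higher and 7% lower, and the median log2 ratio was 0.49. Slfn5 was at 25.2 and 59.5 CPM (1.24, 0.73 to 1.75), Ifit3b at 7.39 and 24.9 CPM (1.75, 0.86 to 2.69), Ifit1 at 17.4 and 37.7 CPM (1.11, 0.48 to 1.75) and Irf7 at 38.3 and 65.5 CPM (0.78, 0.33 to 1.22). Its median was the highest among the classes and clusters given a median, so it is an extreme of these data. The alternative settings were not run for cluster 9, and its difference from the CD8 T-like cells was not tested. Higher sums in RP-6306 were not particular to it. The log2 ratio of the sum was 0.34 (0.21 to 0.47) in cluster 19, which mixes B and T cell markers and held 154 and 44 cells. It was 0.25 (0.15 to 0.34) in T-like cluster 7, but -0.01 (-0.05 to 0.03) in cluster 12, which also mixes B and T cell markers.

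NK-like cells gave few UMIs for the members, 1116 in vehicle and 422 in RP-6306. Of 19 measured members 4 were past 1.5-fold lower (Ifit2, Oasl1, Stat2 and Ifi27l2a) and 3 higher (Bst2, Irf9 and Rtp4), where 8.98% of all measured genes were past 1.5-fold lower and 10.2% higher, and the median log2 ratio was 0.03. Bst2 was at 59.8 and 101 CPM (0.76, 0.15 to 1.35) and Trim30a, the leading member, at 150 and 179 CPM (0.26, -0.17 to 0.67). Parp14 was at 81.8 and 98.6 CPM, Herc6 at 63.3 and 72.7 CPM, Zbp1 at 59.8 and 57.1 CPM and Slfn8 at 51.0 and 59.7 CPM, each with an interval that included 0.

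B-like cells had a median log2 ratio of 0.07 over 32 measured members. Ifit1 was past 1.5-fold lower, at 4.76 and 2.25 CPM (-1.08, -2.03 to -0.21), and Irf7 past 1.5-fold higher, at 28.8 and 51.0 CPM (0.82, 0.58 to 1.07), 1 of 32 each way, where 7.54% of all measured genes were past 1.5-fold lower and 2.38% higher. Ifi27l2a led the class, followed by Trim30a at 216 and 256 CPM (0.24, 0.15 to 0.34), Parp14 at 115 and 123 CPM, Slfn8 at 81.9 and 94.9 CPM, Irf9 at 77.6 and 94.2 CPM (0.28, 0.12 to 0.44) and Herc6 at 74.9 and 79.9 CPM. Ifi35 was at 54.0 and 74.0 CPM (0.45, 0.27 to 0.64). Irf7 was higher in the RP-6306 library in T-like, B-like and cluster 9 cells and lower in tumour-like cells, and these differences between classes were not tested.

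Members were counted cell by cell to describe how they were spread over the cells. At 1000 UMIs per cell at least 1 member was seen in 41.7% of tumour-like cells in vehicle (40.0 to 43.4%) and 35.0% in RP-6306 (33.4 to 36.7%). At this depth cells with 5 or more members were rare and alike in number, 31 of 3171 (0.978%) and 31 of 3381 (0.917%), and 27 and 28 cells lay at 4 or 5 members. At 2000 UMIs per cell they were 80 of 3162 (2.53%, 2.01 to 3.14%) and 62 of 3365 (1.84%, 1.42 to 2.36%). With 3 or more members at 1000 UMIs the shares were 3.63 and 2.90%. The 10% of tumour-like cells with the most member UMIs held 48.8 and 53.4% of them at 1000 UMIs per cell, and 43.2 and 44.9% at 2000. These shares thus depend on depth, and the part that comes from sampling few UMIs per cell was not tested. Without thinning 99.1 and 98.4% of tumour-like cells had a UMI of a member.

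In macrophage and monocyte-like cells at least 1 member was seen in 73.1% in vehicle (68.8 to 77.1%) and 61.1% in RP-6306 (56.4 to 65.6%), and 5 or more in 10.5% (48 of 457 cells) and 5.56% (25 of 450). In macrophage-like cells at least 1 member was seen in 45.8 and 49.2% at 1000 UMIs per cell but in 83.6 and 71.3% at 2000, so the direction turned with the depth. In cluster M2 5 or more were seen in 31.9 and 13%. In T-like cells at least 1 member was seen in 72.9 and 70.8%, and 5 or more in 4.98% (4.33 to 5.70%) and 6.41% (5.75 to 7.12%). The direction of the last pair turned at 3 or more members, 20.7 and 19.9%. B-like cells had 5 or more in 5.71 and 7.05%, NK-like cells in 2.14 and 3.91%, and cluster 9 in 4.01 and 9.97%.

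**Figure D4:**
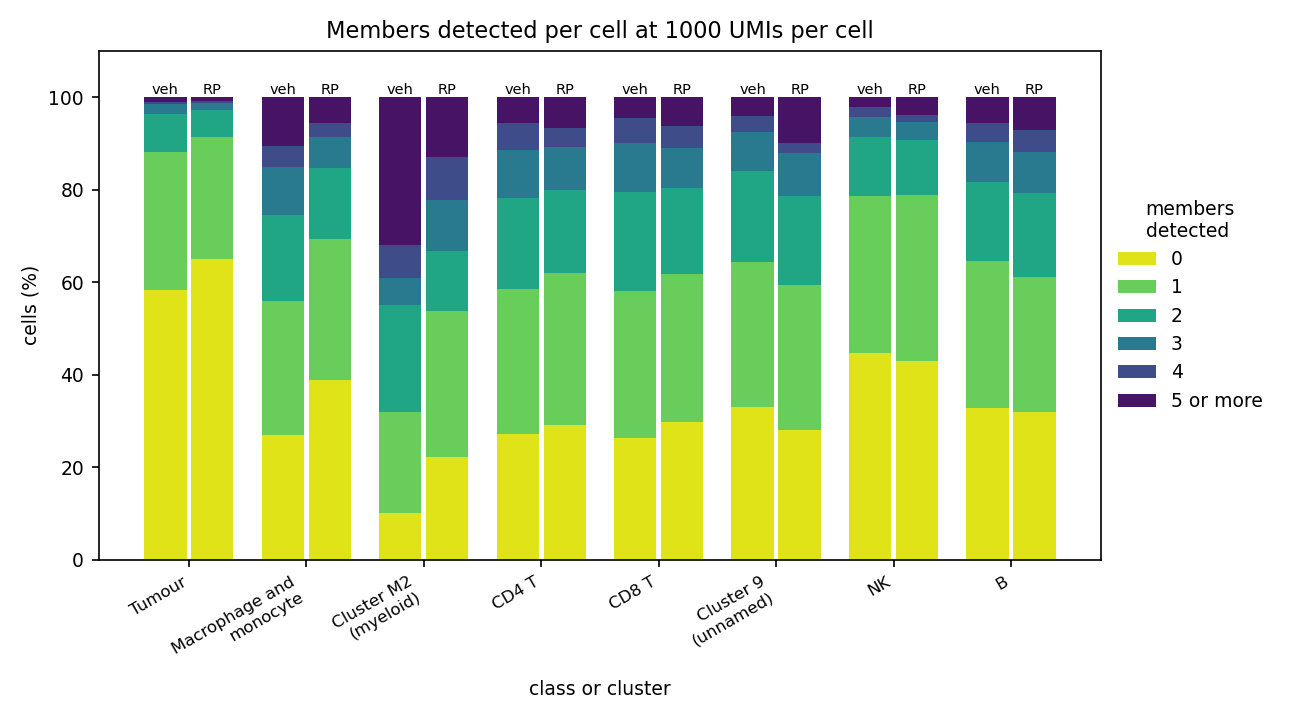
Percent of cells with 0, 1, 2, 3, 4 or 5 and more members detected after thinning to 1000 UMIs per cell, by class or cluster, with vehicle (veh) left and RP-6306 (RP) right. Cells with 5 or more members are 0.978 and 0.917% of tumour-like cells, 31.9 and 13% of cluster M2 and 4.01 and 9.97% of cluster 9.

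Members differed in how far they went with the rest of the list within cells. For each member seen in at least 20 cells of a class and library, the number of other members per cell was compared between cells with and without a UMI of it, as a description. In tumour-like cells those with Rsad2 had 4.55 times as many other members as those without in vehicle and 5.30 times in RP-6306. Ratios for Ifi44 were 4.75 and 4.31, for Rtp4 4.47 and 4.46, for Oasl2 3.65 and 4.85 and for Isg15 3.30 and 3.65. Usp18 reached 6.75 in vehicle. Other members lay lower: Bst2 had 1.52 and 2.12, Irf9 1.51 and 1.73, Ifi35 1.56 and 1.54 and Isg20 1.43 and 1.08. In B-like cells Ifit3 had 4.24 and 3.82, Rsad2 4.01 and 3.41 and Irf9 1.25 and 1.29, so Rsad2 was high and Irf9 low in both classes.

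**Figure D5:**
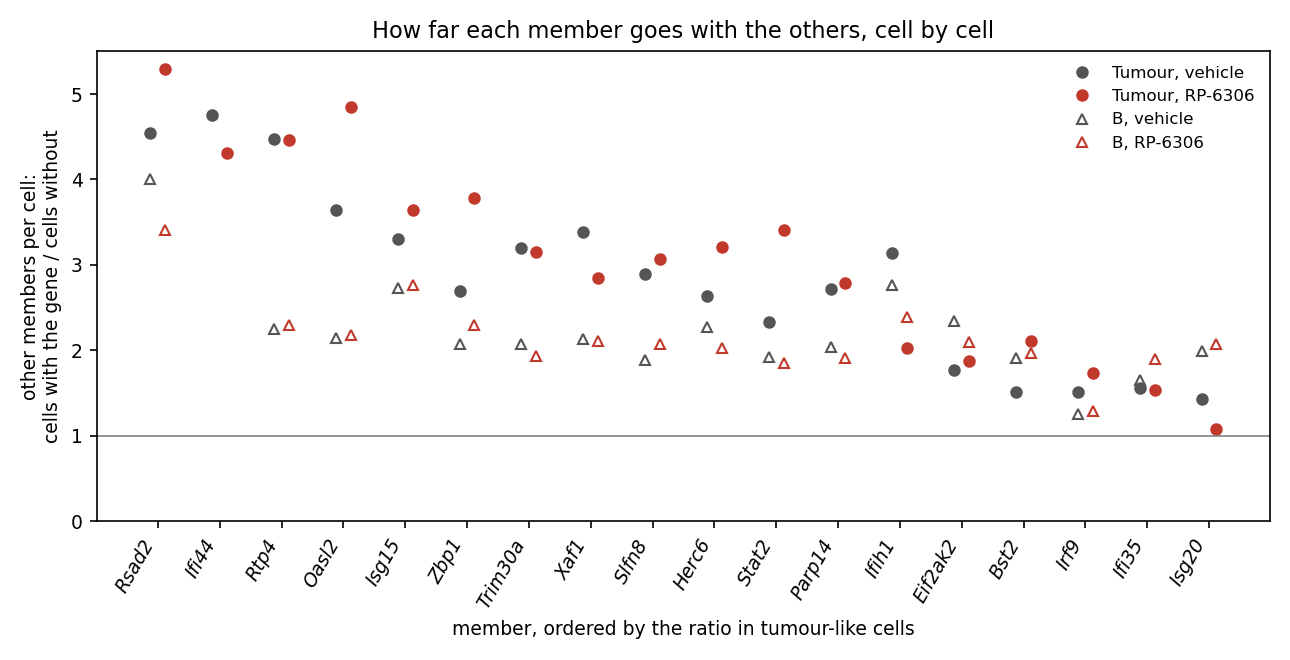
Ratio of other members per cell in cells with a UMI of the named gene to that in cells without it, at 1000 UMIs per cell, for the members seen in enough tumour-like cells of both libraries (filled tumour-like, open B-like, grey vehicle, red RP-6306). Rsad2 lies at 4.55 and 5.30 in tumour-like cells and Isg20 at 1.43 and 1.08, near the line at 1 where a gene goes with no other.

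Sorted by promoter, tumour-like members with an ISRE core had a median ratio of 3.04 in vehicle and 3.28 in RP-6306 over 6 genes each, and those without had 2.64 over 11 genes and 2.44 over 10. Members with no listed promoter had 2.72 over 5 genes and 3.79 over 3, the latter above both other groups. In B-like cells the medians were 2.73 (11 genes) and 2.49 (10 genes) with a core, and 2.21 and 2.15 (12 genes each) without. They were 1.75 and 2.54 with a core and 1.67 and 1.94 without in CD4 T-like cells. In CD8 T-like cells they were 1.61 and 2.38 with a core and 1.51 and 1.99 without. The order was the opposite in macrophage and monocyte-like cells, with 2.39 and 2.85 with a core (6 and 4 genes) and 2.50 and 3.44 without (6 and 3 genes), and in NK-like cells of the vehicle library, with 1.75 over 2 genes with a core and 2.14 for the 1 gene without. Ranges of the groups overlapped, from 1.52 to 4.55 with a core and 1.43 to 4.75 without in tumour-like cells of the vehicle library. In the RP-6306 library they ran from 2.12 to 5.30 with a core and from 1.08 to 6.06 without.

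Genes outside the list that went most with it were named by the largest smaller ratio over the 2 libraries between cells with 5 or more members and cells with 0. In tumour-like cells, with 31 cells of the first kind in each library, these were the chemokine Cxcl10 (44.2 and 52.6-fold), the immunity-related GTPases Tgtp2 (39.8 and 59.0-fold) and Ifi47 (51.7 and 31.5-fold), and Gbp2, a guanylate-binding protein (19.9 and 50.1-fold). Those that followed included Trim14, Irgm1 and Ifi205. These ratios rest on few UMIs, such as 20 and 23 of Cxcl10 in the first kind of cell. In T-like cells the list was A330040F15Rik (7.24 and 7.20-fold), Gbp10, Pml, Ddx60, Ifi214, Daxx, Phf11b and Rnf213.

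The pathway around the members was measured with lists chosen for their known roles. None of 9 interferon ligands reached 20 UMIs in tumour-like cells (16 UMIs in vehicle and 4 in RP-6306 over the list) or in macrophage and monocyte-like cells (5, all of Ifnb1, and 0). Among the classes in which ligands were read, Ifng, the gene of interferon gamma, was seen mainly in NK-like cells. It was at 108 and 122 CPM there (log2 ratio 0.17, interval -0.34 to 0.67), and NK-like cells numbered 383 and 135. Ligands were not read in the smaller classes or in unnamed clusters such as cluster 9. In T-like cells Ifng was at 5.38 and 2.21 CPM (-1.28, -1.96 to -0.64). The 9 ligands together gave 66 and 30 UMIs there, but 1 and 0 in CD4 T-like and 3 and 3 in CD8 T-like cells. Most of these UMIs therefore lay in the remaining T-like cluster, cluster 7, which held 435 and 222 cells. The T-like ratio thus follows the size of that cluster as well as the level in it, and the 2 were not separated.

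Receptor genes differed little where the members were lower. Ifnar1 was at 53.4 and 55.3 CPM in tumour-like cells (log2 ratio 0.05, interval -0.00 to 0.11) and 122 and 136 CPM in macrophage and monocyte-like cells (0.15, -0.04 to 0.35). Ifnar2 was at 74.8 and 65.0 CPM (-0.20, -0.25 to -0.15) and 170 and 164 CPM (-0.05, -0.22 to 0.11). Of 5 measured receptors 0 were past 1.5-fold in either class. Of all measured genes 1.58% were past 1.5-fold lower and 0.963% higher in tumour-like cells, and 5.5 and 11.2% in macrophage and monocyte-like cells. Of the signalling genes in macrophage and monocyte-like cells, Jak2, at 217 and 137 CPM, was past 1.5-fold lower. The transcription factor Irf1 was at 204 and 144 CPM (-0.50, -0.67 to -0.34) and Jak1 at 305 and 266 CPM (-0.20, -0.33 to -0.07), while Tyk2, at 16.9 and 16.6 CPM, differed by less than counting error. Of 10 measured induction genes, which include the sensor Cgas and the kinase Tbk1, 0 were past 1.5-fold in tumour-like cells and 1, Mavs, was past 1.5-fold higher in macrophage and monocyte-like cells, at 5.06 and 8.92 CPM with an interval of -0.08 to 1.79.

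Interferon gamma targets were lower in tumour-like and in macrophage and monocyte-like cells. When the macrophage and monocyte-like class was split, their medians went apart from those of the members at the main setting, but the split was not stable. Over the alternatives the members' medians ran from -0.91 to 0.06 in macrophage-like cells and from -0.57 to -0.07 in monocyte-like cells. Those of the targets ran from -1.21 to -0.47 and from 0.06 to 0.34. In tumour-like cells all 18 were lower in the RP-6306 library. Of them 2 were past 1.5-fold lower, Gbp2 at 49.7 and 30.2 CPM and Gbp8 at 4.68 and 2.49 CPM, where 1.58% of all measured genes were. The median log2 ratio of the 18 targets was -0.41, as was that of the members. In macrophage and monocyte-like cells all 17 measured were lower and 8 past 1.5-fold, where 5.5% of all measured genes were past 1.5-fold lower. Cxcl9 was at 202 and 81.2 CPM (-1.32, -1.51 to -1.12) and Gbp2 at 272 and 136 CPM (-1.01, -1.16 to -0.85). In macrophage-like cells 11 of 17 were past 1.5-fold lower and 0 higher, where 5.09% of all measured genes were lower and 20% higher. Their median was -0.99, and the members had -0.07. In monocyte-like cells 1 of 16 was past 1.5-fold lower and 3 higher, where 7.53% of all measured genes were lower and 11.7% higher. These small counts alone do not set the targets apart. Their median was 0.20, and the members had -0.51. In T-like cells 2 of 16 were past 1.5-fold lower and 0 higher, where 8.25% of all measured genes were lower and 2.08% higher. These counts too do not set the targets apart. Their median was -0.33, while the members there had 0.04. Of 4 measured negative regulators in T-like cells 2 were past 1.5-fold higher, Socs1 at 40.9 and 83.4 CPM (1.03, 0.88 to 1.18) and Socs3 at 36.0 and 71.1 CPM (0.98, 0.82 to 1.15), which block Jak kinases. In NK-like cells 4 of 14 interferon gamma targets were past 1.5-fold higher and 0 lower, among them Gbp2 at 21.1 and 51.9 CPM (1.30, 0.37 to 2.22). Of all measured genes of the class 10.2% were past 1.5-fold higher and 8.98% lower.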

How the data were processed

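The deposited files hold UMI counts per gene and cell, 1 matrix for each library, made by the authors from SeekOne DD 3' libraries; the submitters' processing notes name Cell Ranger 2.1.1 and mm10 without giving their roles, and the filters applied before deposit are not given in the sources used here. Cells with at least 500 UMIs, 300 genes and at most 15% mitochondrial UMIs were kept. Scrublet called 0 doublets at its own threshold, so the 6% of highest scores were removed. Clustering (scanpy 1.11.5, 2000 variable genes, 30 components, Leiden resolution 1) left out 183 interferon genes, and clusters were named from markers. UMIs were summed per class and library; classes needed 50 cells per library and genes 20 UMIs. Ratios have exact conditional binomial intervals and shares Clopper-Pearson intervals (scipy 1.17.1); both cover counting error only. Medians and 1.5-fold calls used CPM + 1, single ratios CPM alone. With 1 library per group no test was run.

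In each class the 6 members of highest CPM, and the 4 lowest and 4 highest ratios among members with 50 UMIs, were eligible to be named; other members were named where a role or count called for it. Members and lists were chosen with earlier results of these data known. On simulated counts for tumour-like cells (17439 genes) 98% of 2-fold and 97% of 1.5-fold changes had the right direction and 95.7% of intervals held the true ratio; for NK-like cells (7250 genes) the shares were 99, 90 and 96.6%. That coverage describes counting error only, which the intervals are built for. It does not show how the intervals hold where a single cell gave much of a gene's UMIs. Alternatives covered the pseudocount, UMI minimum, scaling, thinning, clustering, doublets, free RNA, barcodes found in both libraries and cluster weights. Subtraction of leukocyte RNA, removal of shared barcodes, cluster weights and leaving out cluster M2 were chosen after seeing the data. A gene of the signalling list is not reported here.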

Additional observations from a re-analysis of the deposited data

Results flagged for a closer look

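The median log2 ratio of the members was -0.86 in macrophage and monocyte-like cells and 0.49 in the unnamed lymphocyte cluster 9, so the same contrast went opposite ways in 2 populations of the same libraries. The difference between them was not tested, since each treatment had 1 library. The value of -0.86 was the lowest median among the named classes. The value of 0.49 was the highest among all classes and clusters given a median. A pair of such extremes from the same data is no independent finding of an opposite response. The macrophage and monocyte-like cells also fell into different clusters in the 2 libraries, with a median of -0.36 when clusters were weighted alike. Cluster 9 held 631 cells in vehicle and 365 in RP-6306.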

How the results depend on the processing

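No paired analysis was possible because there was 1 library per group and no test. Of 105 alternatives for the members' medians, 95 stayed within their range, and those of tumour-like cells (-0.44 to -0.19) and of macrophage and monocyte-like cells (-0.95 to -0.36) were all below 0. Of 840 alternatives for 56 single values, 763 stayed within counting error, 71 left it in the same direction and 6 reversed. The cause was not tested for any of the following.

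The members' median was -0.19 in tumour-like cells with 10 CPM added. In macrophage and monocyte-like cells it was -0.95 with size factors and -0.36 with clusters weighted alike. In macrophage-like cells it was -0.29 with size factors, -0.91 at Leiden resolution 0.5, -0.35 without doublet removal and -0.26 at 1000 UMIs per cell or more. In monocyte-like cells it was -0.24 with interferon genes kept in clustering, -0.17 at resolution 0.5 and -0.067 with clusters weighted alike. The median of interferon gamma targets was -0.18 in tumour-like cells with 10 CPM added, -0.48 with 0.1 CPM added and -0.48 without the 1% of cells with most member UMIs. It was -0.21 in macrophage and monocyte-like cells thinned to 1000 UMIs, -0.29 without cluster M2, and -1.21 in macrophage-like cells with size factors.

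In macrophage-like cells the log2 ratio of Stat2 reversed to -0.084 as a mean over cells, -0.67 thinned, -0.81 at resolution 0.5 and -0.19 without doublet removal. Eif2ak2 reversed to -0.041 at resolution 0.5, and Ifit2 to 0.23 with interferon genes kept. Shares are differences in percentage points, RP-6306 minus vehicle. Unthinned, the share with a member was -0.743 in tumour-like, -1.97 in macrophage and monocyte-like and -0.324 in monocyte-like cells. In macrophage-like cells it turned from 3.33 at 1000 UMIs to -12.3 at 2000 and -2.46 unthinned. At 2000 UMIs it was -3.39 in monocyte-like cells, and that with 5 or more members -0.688 in tumour-like cells. At 3 or more members the differences were -0.728 in tumour-like, -10.3 in macrophage and monocyte-like, -9.41 in monocyte-like and -0.755 in T-like cells, the last reversed. Small UMI totals of the class limit NK-like and macrophage-like cells most: 19 and 25 of 32 members had 20 UMIs.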

Other observations

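Smaller populations, with under 50 cells in a library or with no name, are given as values. The members summed to 3450 CPM in vehicle and 3125 CPM in RP-6306 in neutrophil-like cells (54 and 45 cells), and Isg15 alone to 659 and 502 CPM. Plasmacytoid dendritic-like cells (16 and 9) had 3267 and 4031 CPM, of which Bst2, a surface marker of these cells in mice, held 1751 and 2249 CPM. Dendritic-like cells (37 and 52) had 1738 and 1287 CPM. T-like cluster 7, led by Ctla4, Il2ra and Ikzf2, held 435 and 222 cells with 1925 and 2281 CPM. Cluster 12, which mixes B and T cell markers, held 1379 and 1074 cells with 2213 and 2193 CPM.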
